A study of Sus scrofa with 150 samples.

Results

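Livers with high ASNS were set against livers with low ASNS among 150 pigs. ASNS (asparagine synthetase) makes asparagine from aspartate, with glutamine as the nitrogen donor. The members were chosen by measured values: the livers were ranked by the level of the array's 1 ASNS probe set, the 30 highest form the high ASNS group and the 30 lowest the low ASNS group, and the 90 between them are called the middle livers. All pigs were commercial animals of the cross Pix(DLxDE), their livers were taken at slaughter at a mean end weight of 110 kg, and each liver was hybridised to 1 Affymetrix Porcine Genome Array. No pig had a treatment, so both groups are drawn from a single population and were separated by the measured ASNS level alone; the labels give no sex, age, family or feeding state. Values are log2 levels as deposited, and a fold is 2 to the power of a log2 difference of group means. Because the rule used ASNS, its own values are a description with no test, and every other difference is an association with the ASNS level on the same arrays.

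When amino acids run short, uncharged tRNAs activate the kinase GCN2. It phosphorylates the initiation factor eIF2, general translation slows, and translation of the transcription factor ATF4 increases. ATF4 raises transcription of ASNS and of other genes for amino acid synthesis, amino acid import and the charging of tRNAs. Endoplasmic reticulum stress reaches ATF4 through another eIF2 kinase, PERK, and the shared output of these kinases is called the integrated stress response. In the liver the same amino acids are also broken down, and their nitrogen leaves through the urea cycle.

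ASNS in the high ASNS livers ran from 6.75 through a median of 7.04 to 8.92, and in the low ASNS livers from 5.74 through 6.07 to 6.16. The means were 7.31 (SD 0.579, n = 30) and 6.03 (SD 0.121, n = 30), a difference of 1.28 or 2.42-fold. The spread therefore lay mostly at the top: 4 high ASNS livers were above 8, while the 90 middle livers held an SD of 0.152. At the edges of the rule, the lowest high ASNS liver was at 6.75 against 6.70 in the nearest middle liver, and the highest low ASNS liver was at 6.16 against 6.17. The mean ASNS level over the livers stood at percentile 62.8 of all probe sets, so the transcript was in the middle of the array's range and above its floor of 4.09 in each liver.

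**Figure D1:**
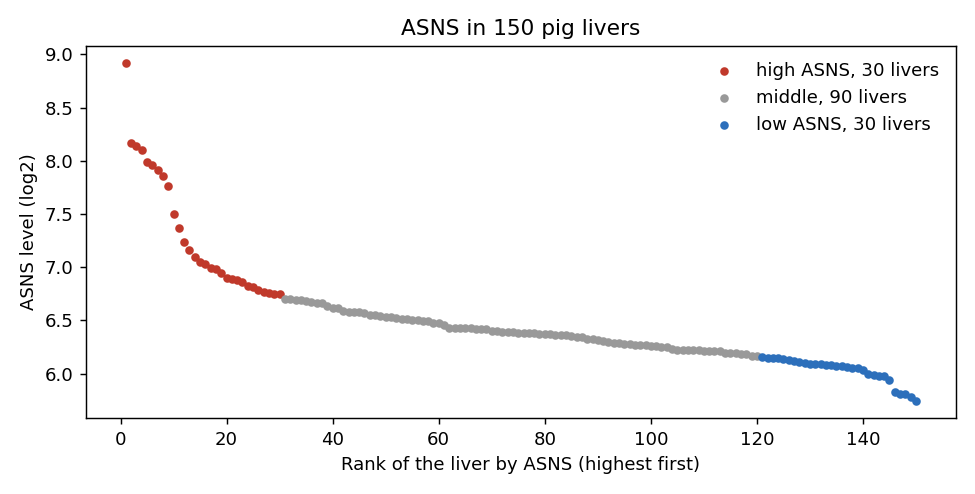
ASNS level (log2, vertical axis) of each of the 150 livers, ranked from the highest (horizontal axis); each point is 1 liver, coloured by group. The high ASNS livers climb steeply to 8.92, whereas the low ASNS livers lie between 5.74 and 6.16, next to the middle livers.

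The livers carried the transcripts of hepatocytes in both groups. ALB, serum albumin, ran from 13.75 through 13.94 to 14.11 in high ASNS livers and from 13.71 through 13.92 to 14.05 in low ASNS livers. No array measure passed the test between the groups: array median, share of values at the floor, correlation with other arrays, the 3 prime minus 5 prime differences of the GAPDH and beta-actin controls and the number in the sample titles had adjusted permutation p of 0.314 to 0.749. Of 13 arrays that correlated less with the rest, 2 were in the high ASNS group, 6 in the low ASNS group and 5 among the middle livers. EIF1AY, a translation initiation factor gene on the Y chromosome, split the 150 livers into 77 above a gap between 4.72 and 5.64 and 73 at or near the floor; 5 of 30 high ASNS livers, 16 of 30 low ASNS livers and 56 of 90 middle livers lay above it. EIF1AY thus moved with the groups, and its level was used as a covariate in further fits. Fits and trait tests were also run on each side of the gap, and for probe sets the difference between the sides was tested. Its part in the results was not tested beyond these.

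High ASNS livers differed from low ASNS livers in 1156 of 23998 probe sets (4.82%) at an adjusted p under 0.05 (limma, Benjamini-Hochberg over all 23998), and a probe set past that threshold is termed called. Of these, 902 were higher (3.76%) and 254 lower (1.06%). The differences were small: their median size was 0.29 on the log2 scale, 31 reached 1.5-fold, and in 0 of them were the 2 groups free of overlap. Per gene, taking for each the probe set of smallest p, 610 of 6764 genes were called (9.02%), 518 higher (7.66%) and 92 lower (1.36%), with a median difference of 0.034. These shares are the background for every gene list that follows. With EIF1AY as a covariate 647 of the 902 higher and 92 of the 254 lower probe sets were still called. Without the 13 arrays that correlated less with the rest, 566 of the higher and 61 of the lower ones were. Of 73 called genes selected for naming, 20 lost the call with EIF1AY and 26 without those arrays. GLUL, MTHFD1L, ATF4, SREBF2, DES, GHR, APOB, GAL, SECISBP2L, PTGR2, PCMTD1, DGAT1, IER5 and ORM1 lost it under both. PSPH, VARS, CDKN1A, MMP7, DIO1 and NDUFA2 lost it with EIF1AY alone, and HYOU1, XBP1, EIF4A1, PRDX1, NDUFS3, LAMP2, NT5C3A, EML4, AKR1CL1, CAVIN2, HAS3 and S100A9 without those arrays alone.

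ALDH18A1 and PYCR1 for proline, PSPH for serine and GLUL for glutamine were higher in high ASNS livers. Other serine and glycine enzymes were not called. With EIF1AY as a covariate PSPH and GLUL lost the call. Of 12 measured members of the amino acid and one-carbon synthesis list, compiled as ATF4 targets, 5 rose, 0 fell and 7 were not called. Of all genes 7.66% were called higher. The median difference was 0.061. GLUL was also in the list of glucocorticoid-induced genes, and regulation of the members by ATF4 was not tested. ALDH18A1, which turns glutamate into the semialdehyde from which proline is made, ran from 6.47 through 7.21 to 8.57 in high ASNS livers and from 6.07 through 6.77 to 7.66 in low ASNS livers. Its means differed by 0.43 (SE 0.105, 1.35-fold, limma adjusted p = 0.0102), and 27 of 30 high ASNS livers lay above the low ASNS median although the groups overlapped.

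PYCR1, which completes proline synthesis, ran from 5.57 through 6.57 to 7.64 in high ASNS livers and from 5.25 through 5.89 to 7.14 in low ASNS livers. The difference was 0.64 (SE 0.121, 1.56-fold, limma adjusted p = 0.00111), and 28 of 30 high ASNS livers exceeded the low ASNS median. Both proline enzymes therefore rose, in groups that overlapped.

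PSPH, the last enzyme of serine synthesis, ran from 5.01 through 6.22 to 7.33 in high ASNS livers and from 4.09 through 5.74 to 6.84 in low ASNS livers, with a difference of 0.62 (SE 0.152, limma adjusted p = 0.0111). The enzymes before it in the pathway stood otherwise: PHGDH, the first, differed by 0.10 (SE 0.188, limma adjusted p = 0.784), and PSAT1, the second, by 0.02 (SE 0.109, limma adjusted p = 0.933). PSAT1 was bright in both groups, with medians of 12.14 in high ASNS livers and 12.26 in low ASNS livers. With EIF1AY as a covariate the difference of PSPH was 0.39 and it was no longer called.

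GLUL, glutamine synthetase, ran from 7.83 through 10.18 to 11.87 in high ASNS livers and from 7.01 through 9.36 to 10.83 in low ASNS livers. It rose by 0.75 (SE 0.207, 1.68-fold, limma adjusted p = 0.0244), the widest difference of the list, and 2 of its 3 probe sets were called. MTHFD1L, a mitochondrial enzyme of one-carbon metabolism, rose by 0.25 (SE 0.0714, limma adjusted p = 0.0268). CTH, which releases cysteine from cystathionine, had the lowest value of the list, -0.36 (SE 0.142, limma adjusted p = 0.11); MTHFD2, ALDH1L2, GOT1 and SHMT1 were not called either. With EIF1AY as a covariate 2 of the 12 were called, ALDH18A1 and PYCR1.

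Among regulators of the integrated stress response 1 of 10 measured was called, ATF4, with 0 lower and a median difference of 0.0148. Of all genes 9.02% were called, so the count is near the background. Positive differences numbered 5 of 10, against 58.1% of all genes. ATF4 ran from 9.79 through 10.45 to 11.42 in high ASNS livers and from 9.67 through 10.21 to 10.73 in low ASNS livers. It rose by 0.29 (SE 0.0867, 1.22-fold, limma adjusted p = 0.0362), 9 high ASNS livers lay above each low ASNS liver, and the rest overlapped. The call was a narrow one: 1 of 2 ATF4 probe sets passed. It was lost in 8 of 17 alternative fits, among them those with EIF1AY or both traits as covariates. The sign held in all 17, which share livers with the main fit.

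DDIT3 (CHOP), a factor induced by ATF4 under lasting stress, had medians of 6.66 in high ASNS livers and 6.56 in low ASNS livers and a difference of -0.006 (SE 0.0805, limma adjusted p = 0.973). ATF3, another induced factor, differed by 0.20 (SE 0.244, limma adjusted p = 0.651); it reached 10.95 in 1 high ASNS liver and 8.85 in 1 low ASNS liver while its medians were 6.27 and 6.44. ATF5 differed by -0.14 (SE 0.0645, limma adjusted p = 0.162) and CEBPB, a partner of ATF4 on its target sites, by 0.12 (SE 0.0943, limma adjusted p = 0.455). CEBPG, PPP1R15A, VLDLR, EIF2S1 and GADD45A were also not called.

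The cytosolic aminoacyl-tRNA synthetases, which load each tRNA with its amino acid, were higher in part: 7 of 15 measured rose against a background of 7.66% of genes called higher, 0 fell, and 13 had a positive difference, with a median of 0.226. SARS (seryl) ran from 9.13 through 9.65 to 10.19 in high ASNS livers and from 8.84 through 9.26 to 9.80 in low ASNS livers. It rose by 0.36 (SE 0.0581, 1.29-fold, limma adjusted p = 0.000167), 10 high ASNS livers lay above all 30 low ASNS livers, and both of its probe sets were called.

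MARS (methionyl) ran from 6.59 through 7.55 to 7.88 in high ASNS livers and from 6.76 through 7.17 to 7.57 in low ASNS livers, a rise of 0.34 (SE 0.0662, limma adjusted p = 0.00167). The overlap was uneven, because 14 high ASNS livers exceeded all low ASNS livers while 1 lay below all of them. GARS (glycyl) rose by 0.30 (SE 0.0653, limma adjusted p = 0.00426) with 3 of 3 probe sets called, and FARSA (the alpha chain of the phenylalanyl enzyme) by 0.38 (SE 0.0971, limma adjusted p = 0.0141) with 2 of 2. WARS (tryptophanyl), AARS (alanyl) and VARS (valyl) rose by 0.29, 0.28 and 0.24, with limma adjusted p of 0.0116, 0.0236 and 0.0424. DARS, EPRS, FARSB, HARS, KARS, LARS, NARS and RARS were not called; NARS, the enzyme that uses the asparagine made by ASNS, was among them.

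Of 11 measured amino acid transporters 2 rose and 0 fell, with a median difference of 0.135. SLC7A1, the cationic amino acid transporter CAT-1 and a known ATF4 target, ran from 5.83 through 6.56 to 9.13 in high ASNS livers and from 5.35 through 6.16 to 7.03 in low ASNS livers. It rose by 0.51 (SE 0.126, 1.42-fold, limma adjusted p = 0.0121), and 3 high ASNS livers were above all low ASNS livers; the liver with the highest ASNS had 8.22. SLC7A7, a light chain of the exporter of cationic amino acids, rose by 0.34 (SE 0.0796, limma adjusted p = 0.00739).

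**Figure D2:**
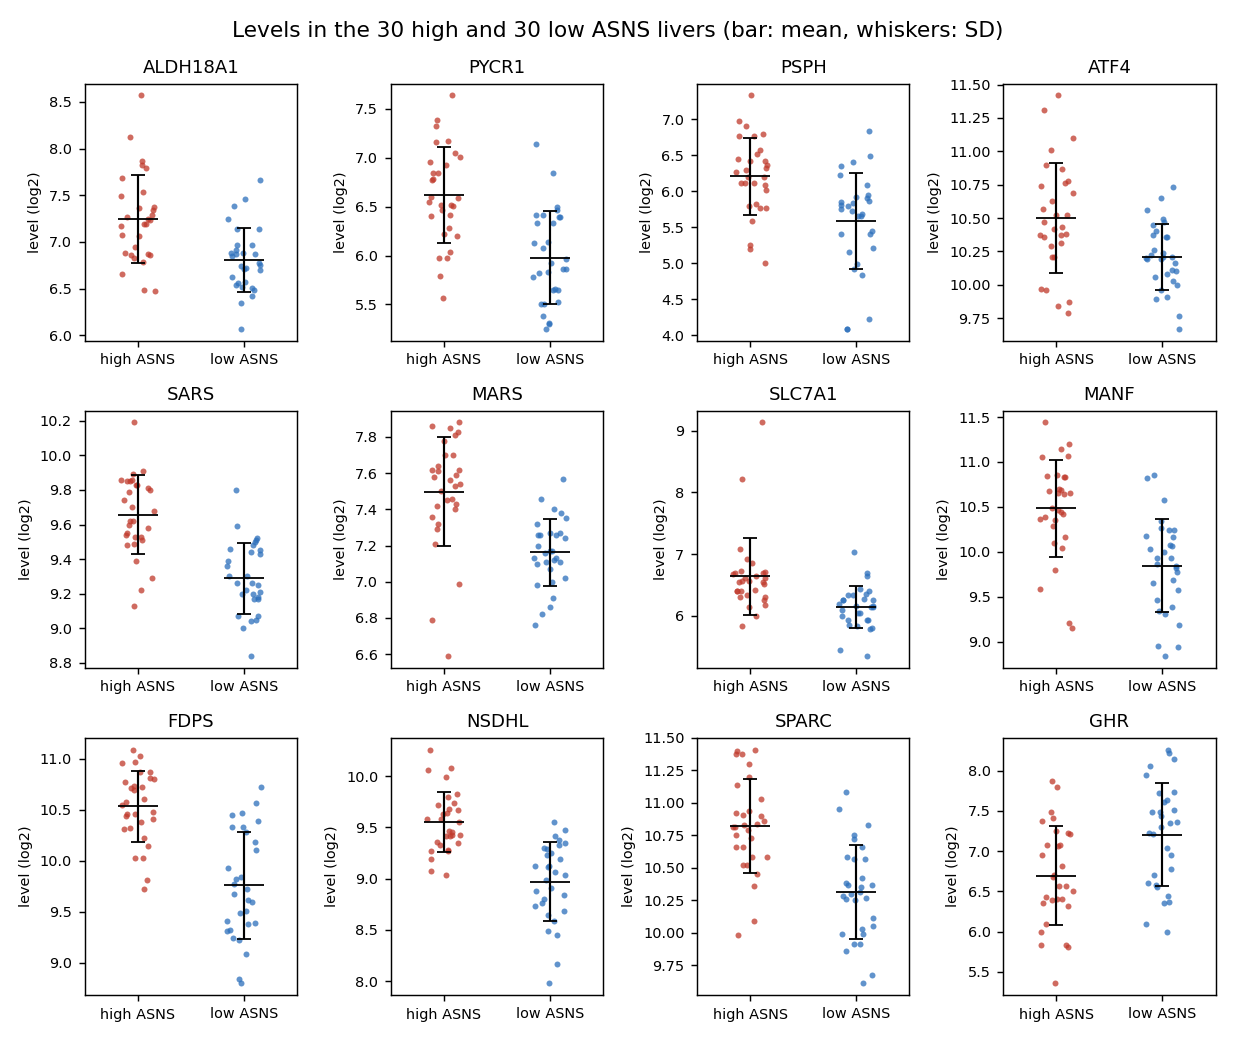
Levels (log2, vertical axes) of 12 genes in the 30 high ASNS livers (left, red) and the 30 low ASNS livers (right, blue); each point is 1 liver, the bar is the mean and the whiskers are the SD. The groups overlap for each gene; 11 are higher in high ASNS livers, such as FDPS at means of 10.53 and 9.76, and GHR is lower at 6.70 and 7.21.

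Amino acid breakdown enzymes were called no more often than all genes. Of 23 measured breakdown enzymes 1 rose and 0 fell, while 9.02% of all genes were called. The median difference was -0.103, against 0.034 over all genes. The one that rose was BCKDK, the kinase that switches off branched-chain amino acid oxidation, by 0.27 (SE 0.064, limma adjusted p = 0.00787). Each of the 5 measured urea cycle enzymes had a negative difference, with a median of -0.102, and 0 were called.

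Part of the endoplasmic reticulum's folding apparatus was higher in high ASNS livers: 4 of 16 measured members rose, 0 fell and 12 were not called. Of all genes 7.66% were called higher. The list's median difference was 0.216, and 11 of 16 were positive (58.1% of all genes). HSP90B1, PDIA3, CALR, CANX and ERO1A had negative differences, from -0.24 to -0.06, and were not called. HSPA5 differed by 0.25 (limma adjusted p = 0.257). MANF, a secreted protein induced when folding in the endoplasmic reticulum is stressed, ran from 9.15 through 10.56 to 11.44 in high ASNS livers and from 8.84 through 9.89 to 10.85 in low ASNS livers. It rose by 0.64 (SE 0.132, 1.56-fold, limma adjusted p = 0.00271), with overlapping groups. CRELD2, likewise a stress-induced protein of this compartment, rose by 0.64 (SE 0.174, limma adjusted p = 0.0212), HYOU1, a chaperone of the HSP70 class, by 0.54 (SE 0.15, limma adjusted p = 0.0237), and the transcription factor XBP1 by 0.26 (SE 0.0711, limma adjusted p = 0.0241). Exocrine pancreas, a tissue rich in such proteins, had marker sums (log2 of the summed linear levels of 6 measured of 11 listed) from 9.66 through 10.94 to 12.49 in high ASNS livers and from 10.00 through 11.71 to 12.56 in low ASNS livers, and 0 of the 6 were called. With EIF1AY as a covariate 7 of the 16 were called higher (7.85% of all genes were), and without the arrays that correlated less 6 were (5.75% of all genes).

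Of 59 cytosolic ribosomal proteins 7 rose, set against 7.66% of all genes called higher, so the count is near the background; 0 fell, and 48 had a positive difference (58.1% of all genes did), with a median of 0.091. RPL37 rose by 0.31 (SE 0.0673, limma adjusted p = 0.00489) and RPS13 by 0.15 (SE 0.0374, limma adjusted p = 0.0131). Nucleolar factors that build ribosomes had 6 of 17 higher and 0 lower, with a median of 0.148: NHP2, which belongs to the RNA-guided pseudouridylation complex, rose by 0.42 (SE 0.089, limma adjusted p = 0.00327), and FBL, fibrillarin, the methyltransferase of box C/D particles, by 0.30 (SE 0.0675, limma adjusted p = 0.00596).

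Among 31 translation initiation and elongation factors 6 rose, 1 fell and the median difference was 0.051. EIF2B3 and EIF2B2, subunits of the exchange factor that phosphorylated eIF2 inhibits, rose by 0.29 (SE 0.0578, limma adjusted p = 0.00156) and 0.30 (SE 0.0813, limma adjusted p = 0.0201). EIF3I and EIF4A1 rose by 0.29 each. The one that fell was PABPC1, the cytoplasmic poly(A)-binding protein, at -0.37 (SE 0.109, limma adjusted p = 0.036), with means of 11.17 in high ASNS livers and 11.54 in low ASNS livers.

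Of 10 measured genes of cholesterol synthesis and uptake 3 rose, 0 fell and 7 were not called, with a median of 0.197. FDPS, which makes farnesyl diphosphate, ran from 9.72 through 10.56 to 11.09 in high ASNS livers and from 8.80 through 9.70 to 10.72 in low ASNS livers. It rose by 0.77 (SE 0.113, 1.71-fold) with the smallest adjusted p of all 23998 probe sets (limma, 8.25e-05), and 30 of 30 high ASNS livers were above the low ASNS median, 10 of them above all low ASNS livers.

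NSDHL, a sterol dehydrogenase, ran from 9.04 through 9.51 to 10.26 in high ASNS livers and from 7.98 through 9.05 to 9.55 in low ASNS livers. Its rise was 0.58 (SE 0.0881, limma adjusted p = 0.000115), and 14 high ASNS livers exceeded all low ASNS livers. SREBF2, the transcription factor that drives the pathway, rose by 0.29 (SE 0.0892, limma adjusted p = 0.0439), but lost the call in 10 of 17 alternative fits. Outside the list, ACAT2, which condenses a pair of acetyl-CoA in the cytosol, rose by 0.81 (SE 0.135, 1.75-fold, limma adjusted p = 0.000264), and HSD17B7, a sterol ketoreductase, by 0.65 (SE 0.105, limma adjusted p = 0.0002). HMGCS1, SQLE, FDFT1, CYP51, MSMO1, INSIG1 and SC5D, also of the pathway, were not called.

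**Figure D3:**
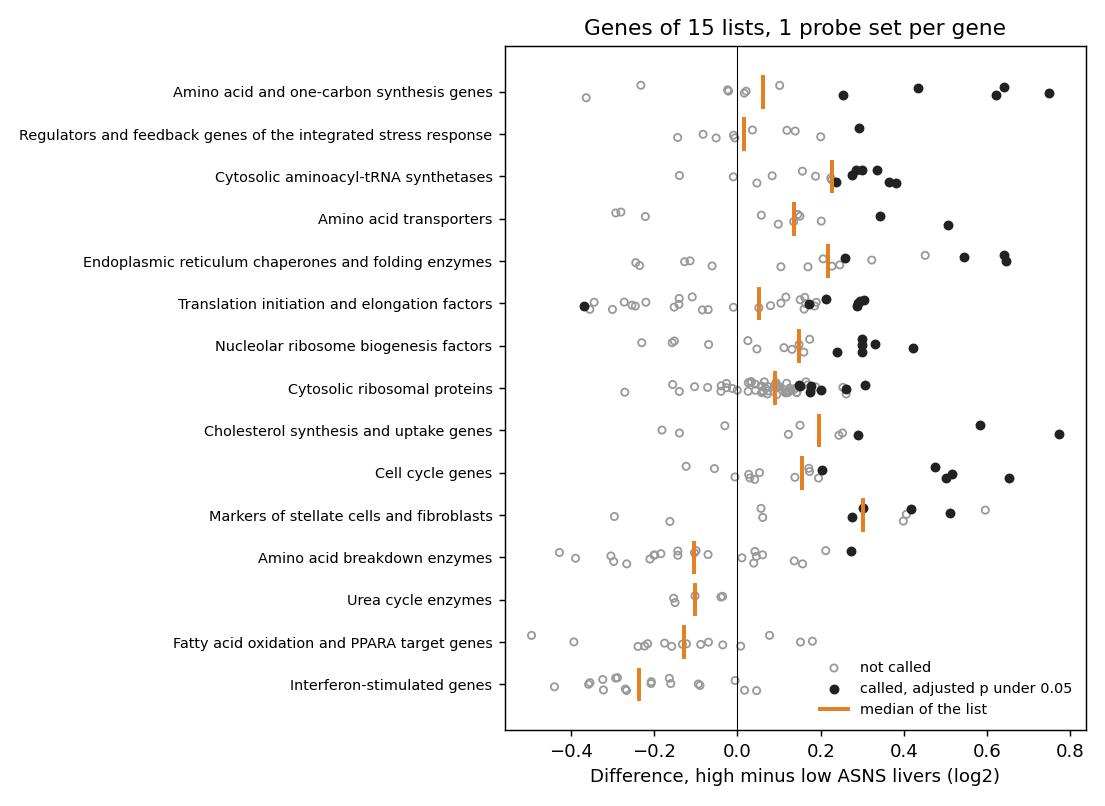
Difference in log2 level, high minus low ASNS livers (horizontal axis), of each measured gene of 15 lists (rows), 1 probe set per gene; filled points were called, open points were not, and the orange bar is the list's median. tRNA synthetases (7 of 15 called), stellate cell markers (4 of 11) and chaperones (4 of 16) have called genes to the right of 0, while urea cycle, fatty acid oxidation and interferon-stimulated genes have none called.

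Of 16 measured cell cycle genes 5 rose, 0 fell and 11 were not called, PCNA, MCM2, MCM3, MCM5, CCNA2, CCNB2, PLK1 and CDC20 among them, with a median of 0.155. BIRC5 (survivin), of the chromosomal passenger complex, ran from 5.81 through 6.29 to 7.36 in high ASNS livers and from 4.91 through 5.84 to 6.62 in low ASNS livers, and rose by 0.52 (SE 0.0951, limma adjusted p = 0.000862). UBE2C, a ubiquitin-conjugating enzyme of mitosis, rose by 0.50 (SE 0.0993, limma adjusted p = 0.0017), and RRM2, a subunit of ribonucleotide reductase, by 0.47 (SE 0.0988, limma adjusted p = 0.00297). CDKN1A (p21), an inhibitor of the cycle, rose by 0.65 (SE 0.154, limma adjusted p = 0.0084) in the same livers. Its call was lost with EIF1AY as a covariate, at a difference of 0.51, and with EIF1AY and both traits the difference was 0.40.

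Some markers of stellate cells and fibroblasts were higher in high ASNS livers. Of 11 measured of 14 listed, 4 rose (7.66% of all genes were called higher), 0 fell and 7 were not called. Of the 11 differences 9 were positive (58.1% of all genes had one), with a median of 0.301. RGS5 and COL3A1 differed by -0.30 and -0.16, and COL1A2, LUM, DCN, ACTA2 and TAGLN were not called either. The marker sum ran from 11.65 through 12.42 to 13.22 in high ASNS livers and from 11.61 through 12.03 to 12.69 in low ASNS livers. SPARC, a matrix glycoprotein, ran from 9.98 through 10.82 to 11.41 in high ASNS livers and from 9.61 through 10.30 to 11.08 in low ASNS livers, and rose by 0.51 (SE 0.0921, limma adjusted p = 0.000639). PDGFRB, a growth factor receptor of stellate cells, rose by 0.42 (SE 0.106, limma adjusted p = 0.0141), VIM by 0.30 and DES by 0.28, both intermediate filament genes. With EIF1AY as a covariate 3 of the 11 were called. In bulk tissue more cells of a type and more RNA per cell cannot be told apart, and the part of these cells in the other results was not tested. Markers of endothelial cells, macrophages, T and NK cells, bile duct cells, red blood cells and adipocytes had 0 called. Neutrophil markers had 1 called of 8 measured and 12 listed, a count near the 9.02% of all genes called. It was S100A9, a calcium-binding protein of granulocytes, which rose by 0.56 (SE 0.157, limma adjusted p = 0.0251). Without the arrays that correlated less S100A9 lost the call, at a difference of 0.50. Of the 8 differences 7 were positive (58.1% of all genes had one), with a median of 0.097. The neutrophil marker sum ran from 9.12 through 9.93 to 10.59 in high ASNS livers and from 8.96 through 9.62 to 10.31 in low ASNS livers. The 1 called gene of the B and plasma cell list was XBP1, and that of the muscle list was DES, both counted above in other lists.

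GHR, the growth hormone receptor, and APOB were among the genes called lower. GHR, whose signal drives IGF1 production in liver, ran from 5.36 through 6.62 to 7.87 in high ASNS livers and from 6.0 through 7.33 to 8.26 in low ASNS livers. It fell by 0.51 on the log2 scale (SE 0.158, limma adjusted p = 0.0446), and 5 high ASNS livers were below all low ASNS livers. The call was lost in 11 of 17 alternative fits. The sign was kept in each, but those fits share livers with the main one. Without the arrays that correlated less the difference of GHR was -0.34. GHR was the 1 called gene of 11 measured in the growth hormone and IGF axis, of which 7 had a positive difference. IGF1 itself differed by 0.41 (SE 0.155, limma adjusted p = 0.0994) and was not called.

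APOB, the structural protein of very low density lipoprotein, ran from 10.38 through 11.81 to 13.40 in high ASNS livers and from 11.24 through 12.47 to 13.29 in low ASNS livers, and fell by 0.50 on the log2 scale (SE 0.155, limma adjusted p = 0.0464); this call was lost in 9 of 17 alternative fits, and without the arrays that correlated less the difference was -0.33. It was the 1 called of 20 measured hepatocyte plasma proteins, whose median difference was 0.004. ACOX2, a peroxisomal oxidase of bile acid side chains, fell by 0.63 on the log2 scale (SE 0.177, limma adjusted p = 0.0265). Of its 2 probe sets 1 was called, and the other differed by -0.09. LAMP2, a lysosomal membrane protein, fell by 0.48 (SE 0.111, limma adjusted p = 0.00757), with 2 of its 4 probe sets called. The largest fall of a named gene was EIF1AY, by 0.95 on the log2 scale (SE 0.256, limma adjusted p = 0.0207). Its values split at a gap, with 5 of 30 high and 16 of 30 low ASNS livers above it. On each side of the gap the difference was smaller, -0.06 at or near the floor and -0.37 above it. NT5C3A, EML4, GAL, AKAP7, AKR1CL1, SECISBP2L, CAVIN2, PTGR2, PCMTD1 and HAS3 were called lower by 0.45 to 0.58. Without the arrays that correlated less, AKAP7 alone of these 10 was still called, and the differences of AKR1CL1 and SECISBP2L were -0.28 and -0.33. With those arrays kept, EML4, SECISBP2L and CAVIN2 had 1 of 2 probe sets called, and AKR1CL1 had 1 of 3.

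No interferon-stimulated gene was called, 0 of 18 measured, although 16 of 18 differences were negative, with a median of -0.237. Fatty acid oxidation and PPARA target genes had 0 of 16 called and a median of -0.128, and hepatocyte transcription factors 0 of 7 and a median of -0.161. At the level of single genes these lists did not pass. Of 42 lists, 26 had at least 1 gene called and 16 had none.

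The 90 middle livers offered the same measure in livers the rule had not placed in either group. Over them, 0 of 23998 probe sets (0%) followed ASNS at an adjusted p under 0.05 (limma), and 2273 had an unadjusted p under 0.05; their ASNS range of 6.17 to 6.70 was narrow. Of the 1156 probe sets called between the groups, 1046 had a slope of the same sign in the middle livers (90.5%), against 67% of all 23998 tested. With an unadjusted p under 0.05, 249 of the 1156 had the same sign (21.5%) and 3 the opposite sign (0.26%). Over all 23998 probe sets these shares were 7.86% and 1.61%. PSPH had a slope of 0.99 per log2 unit of ASNS (SE 0.32, unadjusted p = 0.00243), SPARC 0.69 and SREBF2 0.52, whereas PYCR1 had 0.04 and MARS -0.06.

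The lists did not all keep their direction there. Over all genes, with 1 probe set each, 4126 of 6764 had a positive slope in the middle livers, with a median of 0.0878. Cholesterol genes had 9 of 10 positive slopes and a median of 0.279. Stellate cell markers had 7 of 11, a share near that of all genes, and a median of 0.279. For the chaperones 14 of 16 slopes were negative, with a median of -0.468, opposite to their difference between the groups. MANF had a slope of -0.34 and HYOU1 -0.46. Interferon-stimulated genes had 16 of 18 positive slopes and a median of 0.32, again opposite to the groups. tRNA synthetases had 8 of 15 positive slopes and a median of 0.022, and ribosomal proteins 55 of 59 and 0.215.

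**Figure D4:**
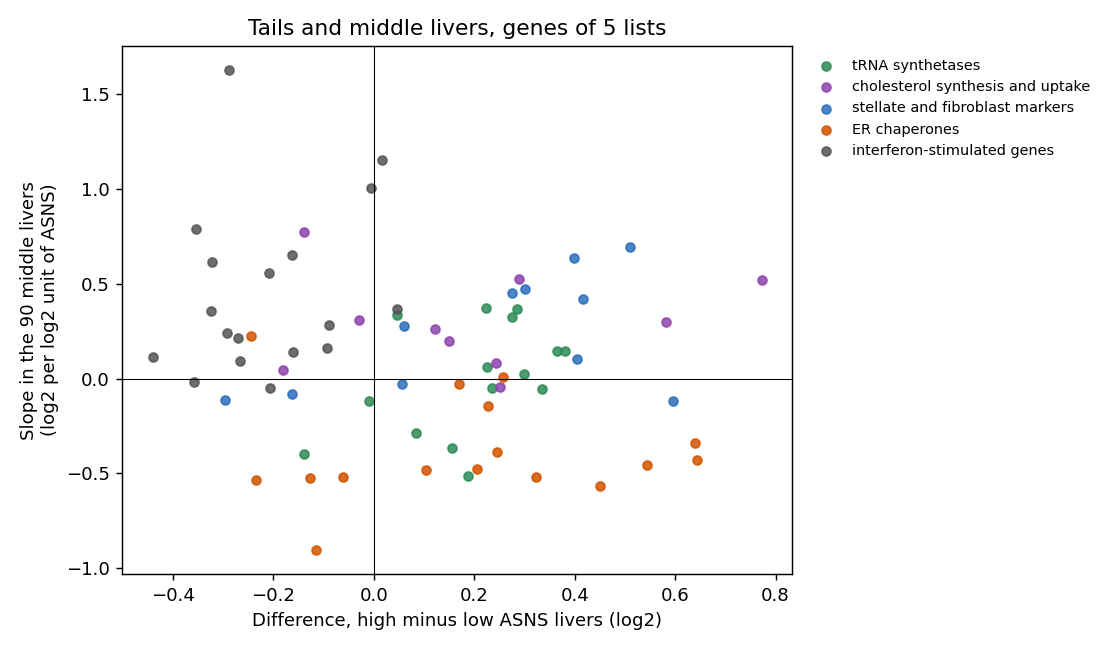
Genes of 5 lists, by their difference between high and low ASNS livers (log2, horizontal axis) and their slope on ASNS in the 90 middle livers (log2 per log2 unit of ASNS, vertical axis); each point is 1 gene. Chaperones lie mostly below 0 on the vertical axis (14 of 16) and interferon-stimulated genes mostly above it (16 of 18), whereas cholesterol genes lie above it in 9 of 10 cases. Among all genes, 4126 of 6764 had a positive slope.

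By likeness to ASNS within the middle livers, the nearest named genes were CXCL12, RPL31, TANGO2, MARCH3, RPSA, C1H15orf57, POLE4, SFRP1, FAM57A and NPC2, with Pearson correlations from 0.374 to 0.401 over 90 livers that share the array platform. These correlations are weak. Of the 10, RPL31, MARCH3, SFRP1 and FAM57A were also called higher between the groups, SFRP1 (a secreted Wnt antagonist) by 0.55. The other members of the amino acid pathway were not among them.

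High ASNS livers came from leaner pigs. Fat area on the long back muscle ran from 9.9 through 12.8 to 18.2 cm2 in high ASNS pigs and from 11.5 through 15.9 to 23.7 cm2 in low ASNS pigs. The means were 13.2 cm2 (SD 2.12, n = 30) and 16.0 cm2 (SD 2.67, n = 30), a difference of -2.83 cm2 (SE 0.623, two-sided permutation p = 3e-05, adjusted p = 0.00024 over 8 measures). A relation of ASNS with fat area was known from these data, so this is a description of its size in the groups and no separate support. Drip loss, the water lost by hanging muscle, averaged 5.08% (SD 1.97) in high ASNS pigs and 5.54% (SD 2.14) in low ASNS pigs, a difference of -0.463 (permutation p = 0.387).

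The fat difference was present in pigs with EIF1AY at or near the floor, at 12.6 cm2 in 25 high ASNS pigs and 15.1 cm2 in 14 low ASNS pigs (permutation p = 0.00052). Above the EIF1AY gap it was 15.7 cm2 in 5 high ASNS pigs and 16.8 cm2 in 16 low ASNS pigs (exact permutation p = 0.469). The difference between these 2 differences was not tested. The 5 livers of highest ASNS came from pigs with 9.9, 10.8, 11.6, 16.3 and 14.2 cm2 in falling order of ASNS, and 4 of the 5 were at or near the EIF1AY floor. With fat area and drip loss as covariates 608 probe sets (2.53%) were called between the groups, of which 530 were among the 1156.

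**Figure D5:**
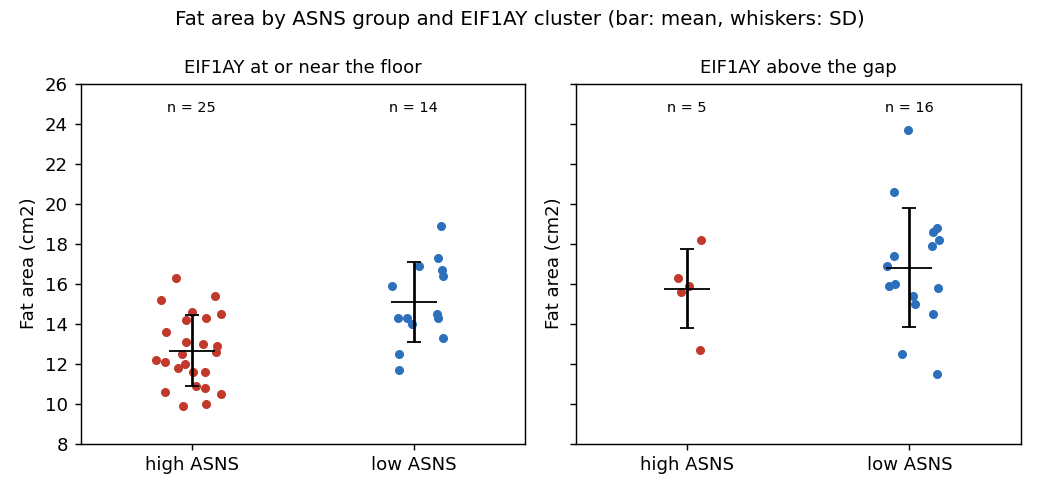
Fat area (cm2, vertical axis) of high ASNS pigs (left, red) and low ASNS pigs (right, blue), in pigs whose liver EIF1AY was at or near the floor (left panel) and above the gap (right panel); each point is 1 pig, the bar is the mean and the whiskers are the SD. High ASNS pigs average 12.6 against 15.1 cm2 in the left panel and 15.7 against 16.8 cm2 in the right panel, where there are 5 high ASNS pigs.

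The EIF1AY clusters are subsets of the livers that gave the calls, so their signs are not independent of the calls. The same sign in both clusters was found for 1151 of the 1156 and for 16521 of all 23998, and nothing is read from it. Fitted within the cluster at or near the floor (25 high and 14 low ASNS livers), 71 probe sets (0.296%) were called, 68 of them among the 1156. Above the gap, with 5 high and 16 low ASNS livers, 0 were called by limma and 2665 had an unadjusted p under 0.05. A test of the difference between the clusters called 0 of 23998 probe sets, with 2.38% of them at an unadjusted p under 0.05.

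The liver with the highest ASNS, 8.92, also had the highest ATF4 of the high ASNS group, 11.42, with ALDH18A1 at 7.87 and PYCR1 at 7.16. Of the 5 livers of highest ASNS, 5 exceeded every low ASNS liver for MARS, 3 for ALDH18A1, 2 for PYCR1 and 1 for ATF4. These genes were called between the same groups, so the values are a description.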

How the data were processed

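Total RNA of 150 pig livers was measured on 1 array each. The authors deposited values on a log2 scale, inferred here from their range, and used GCOS 1.1.1, per the submitters' processing notes. How probes were summarised, background-corrected and normalized, and the genome build, is not given in the sources used here. Values stop at a floor of 4.09, which holds 2.75% of them, so changes near it are understated. Precision is limited by the number of arrays.

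Of 24123 probe sets 124 controls were left out, and ASNS was shown but not tested, leaving 23998. Genes were named from the array annotation through Entrez IDs: 10069 probe sets had 1 symbol, 198 several and 13732 none. Groups were compared with limma 3.58.1 (lmFit, eBayes with trend) in R 4.3.3, two-sided; traits and array measures by two-sided permutation with 100000 resamples. The fit was tested on simulated data with independent noise for each probe set and known changes added. That setting lacks correlation between probe sets, so it does not bear on false calls in these arrays. Members, 42 gene lists and alternatives were chosen with earlier results of these data known. Named genes were the 15 largest called differences in each direction, members of the synthesis, stress regulator and tRNA synthetase lists, and up to 4 called members of each other list; any other gene was named after its values were seen. Alternatives were quantile normalization, filters on dim (mean above 6) and flat (SD above 0.25) probe sets, eBayes settings, tail sizes, a slope, covariates and thresholds.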

Additional observations from a re-analysis of the deposited data

How the results depend on the processing

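The count of 1156 probe sets stayed within 1.5 times under quantile normalization, both filters, other eBayes settings, tails of 40, and EIF1AY, array measures or DBP and NFIL3 as covariates. It was 310 with 20 against 20 livers (263 higher, 47 lower), 2481 for a slope over all 150 livers (1577 and 904), 752 without the 13 arrays that correlated less with the rest (656 and 96) and 608 with fat area and drip loss as covariates (513 and 95). With blocks of 100 title numbers 472 were higher and 85 lower. It was 567 with EIF1AY and both traits together, a fit chosen after seeing the data, 71 within the low EIF1AY cluster, 0 within the high one (2665 at an unadjusted p under 0.05, limma), 237 at an adjusted p under 0.01 and 31 at 1.5-fold or more. The cause of each change was not tested. The smaller fits also held fewer livers, and the part of that was not tested either. All 73 called named genes kept their sign in each alternative fit that held them, which was 17 fits for 58 genes, 16 for 14 and 14 for EIF1AY. Those fits share livers with the main one, so the signs are not independent of the calls. Of the 73 genes 0 kept the call in every alternative fit, and the fit within the high EIF1AY cluster called 0 probe sets. Within the high EIF1AY cluster the fat area difference was -1.05 and missed the threshold, and drip loss reversed to 0.0814. Among genes that were not called, PSAT1 reversed to -0.0005 with tails of 40, -0.0521 without those arrays, -0.056 with EIF1AY, -0.00859 with array measures and -0.0799 in the low EIF1AY cluster. PHGDH reversed to -0.11 without those arrays and -0.247 in the high cluster, ATF3 to -0.0129 with traits, -0.0468 with DBP and NFIL3 and -0.179 in the high cluster, and DDIT3 to 0.0154 with quantile normalization, 0.06 with tails of 20, 0.0497 for the slope and 0.0379 in the high cluster. Ranking by other ASNS probe sets was not run, since the array has 1. No paired analysis was possible because the labels give 1 group and no pairing.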
